A study of Mus musculus with 8 samples.

Results

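MicroRNA genes with a Klf6 peak in mouse oligodendrocyte progenitors (OLP) and immature oligodendrocytes (iOL) were taken as all genes whose listed symbol begins with Mir and a digit or with Mirlet. They numbered 46 of the 3888 genes listed as the nearest gene of a peak, and they held 63 peaks. Klf6 is a zinc finger transcription factor, and chromatin immunoprecipitation followed by sequencing (ChIP-seq) recovers the DNA that it occupies as peaks of sequenced fragments, here called tags. For both stages, cells of strain C57BL/6 were grown with PDGF-AA at 10 ng/ml and bFGF at 20 ng/ml. OLP received no T3, a thyroid hormone, and iOL were the same kind of cells after T3 at 40 ng/ml for 18 h. Each stage had 2 Klf6 ChIP samples, A and B, which the study's methods call biological replicates, and the labels do not say whether they were separate cultures, so p-values measure only the spread between these samples. Each stage also had 2 input samples, which have no peak list used here. Peaks were listed for a gene if the summit was at most 50 kb before or 5 kb after its start. For a microRNA this start is the 5′ end of the annotated hairpin, not the start of its primary transcript.

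MicroRNAs are short RNAs cut from hairpin precursors by Drosha and Dicer and loaded onto Argonaute proteins, where the seed, the bases at positions 2 to 8, pairs with target mRNAs. Many hairpins lie inside introns of host genes and are transcribed with them, and others lie in clusters on one primary transcript. In the oligodendrocyte lineage, Dicer is required for differentiation and myelination, and miR-219, miR-338 and miR-138 are known for promoting the exit from the progenitor state.

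RefSeq mature sequences were found for 39 of the 46 members, 67 sequences with 65 different seeds, and 44 members matched a RefSeq symbol (table build GRCm38.p6). The following are the products of the genes listed in 3 or 4 of the 4 samples, 5′ to 3′ with the seed in capitals.
miR-28b: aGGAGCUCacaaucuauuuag
miR-879-5p: aGAGGCUUauagcucuaagcc
miR-879-3p: gCUUAUGGcuucaagcuuucgg
miR-703: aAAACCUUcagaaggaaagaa
miR-509-5p: uACUCCAGaauguggcaaucau
miR-509-3p: uGAUUGACauuucuguaaugg

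These 6 sequences had 6 different seeds. Among the 39 members with mature sequences, 2 seeds were shared by 2 genes each. Members without one, such as Mir30d, could not be compared. The seed AUUGCAC was common to miR-32-5p and to miR-92a-3p, a product of the Mir17hg cluster (miR-17~92), which is known for promoting proliferation. The seed GUCAGGC was common to a pair of neighbours on chromosome 7, Mir344b and Mir344c. They are shown with let-7a-5p and miR-138-5p, members known from glial differentiation.
miR-32-5p: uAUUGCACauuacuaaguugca
miR-92a-3p: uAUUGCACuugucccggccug
miR-344b-5p: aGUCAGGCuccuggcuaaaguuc
miR-344c-5p: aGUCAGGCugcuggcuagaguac
let-7a-5p: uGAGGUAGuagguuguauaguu
miR-138-5p: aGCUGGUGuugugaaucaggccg

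The lists held 5777 to 12451 peaks per sample with 105081 to 152149 tags in them. With a false discovery rate (FDR) under 5%, 60 peaks at 43 microRNA genes remained. The 3 members that did not pass were Mir153, Mir1196 and Mir1904, each with 1 peak of 10 tags in iOL B and an FDR of 5.46%, 5.46% and 6%. Just inside the limit was Mir30e in iOL B at 4.44%. The median number of tags in peaks at microRNA genes was 8 in OLP A, 12 in OLP B, 7 in iOL A and 12.5 in iOL B, beside 8, 12, 8 and 13 for all listed peaks. Their median fold enrichment, the tags at the summit over the background expected by the peak caller, was 12.2, 7.67, 14.4 and 11.1, beside 14.6, 9.01, 14.9 and 10.6. In replicate A of OLP and of iOL no peak had under 7 tags, and 8 of 17 and 10 of 16 microRNA peaks had exactly 7, beside 35.2% and 37.1% of all listed peaks. Because the lists hold DNA positions, the cell type was not checked against expressed markers.

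**Figure D1:**
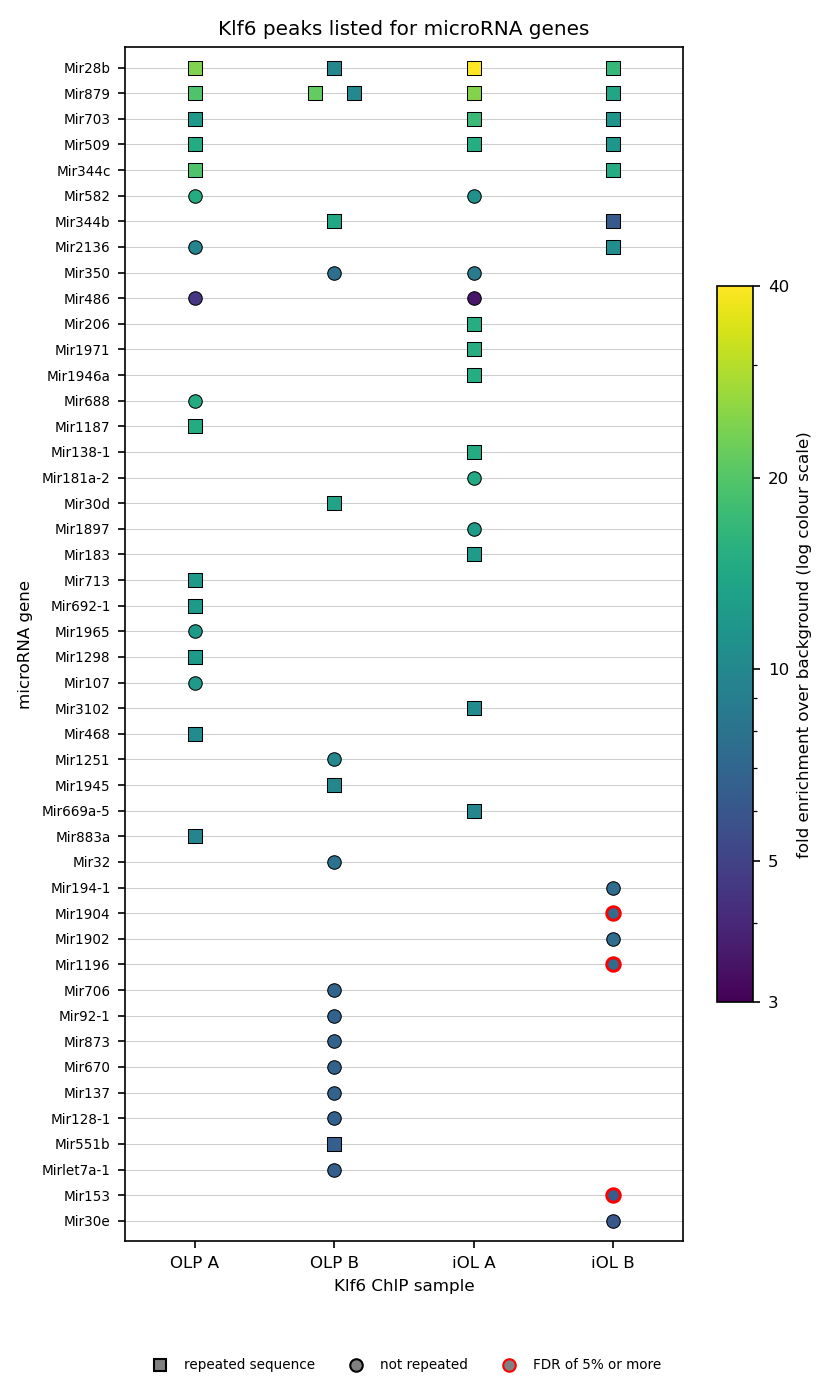
Klf6 peaks of the 46 microRNA genes (rows) in the 4 ChIP samples (columns), coloured by fold enrichment on a log scale. Squares are peaks of repeated sequence and circles the others, 2 symbols in a cell are 2 peaks, and red outlines mark the 3 peaks with an FDR of 5% or more. Mir28b and Mir879 have peaks in all 4 samples, and most genes have a peak in 1.

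The first comparison asked whether the number of microRNA genes with a Klf6 peak differed between OLP and iOL. The counts were 17 in OLP A, 16 in OLP B, 16 in iOL A and 10 in iOL B. They averaged 16.5 ± 0.707 in OLP and 13 ± 4.24 in iOL (SD, n = 2 each). The difference of 3.5 genes was within the spread between replicates (exact permutation test, two-sided, p = 0.667), and iOL A equalled OLP B. With 2 samples against 2, this test cannot give a p below 0.33. Without iOL B the difference was 0.5 genes, and without iOL A it was 6.5. With a peak caller score of at least 50 (the score is 10 times -log10 of the p-value), it turned to -0.5.

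The share of listed peaks that fell to microRNA genes was 0.620% in OLP A, 1.03% in OLP B, 0.720% in iOL A and 0.861% in iOL B. The mean share was 0.826% ± 0.292 in OLP and 0.790% ± 0.0994 in iOL (SD, n = 2 each; exact permutation test, two-sided, p = 1). The highest and the lowest share were both those of OLP samples. The sign of the 0.0355 percentage point difference changed under several settings: without OLP B it was -0.171.

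The second question was which microRNA genes recurred. Of the 43 genes, 21 had peaks in OLP alone, 12 in iOL alone and 10 in both stages, and every one of the 10 genes with peaks in 2 or more samples had them in both stages. These 10 were 23.3% of the microRNA genes. Of all listed genes 31.1% had peaks in both stages, and 36% had them in 2 or more samples. Of the 31 microRNA genes with a peak in either OLP replicate, 2 (6.45%) had one in both, Mir28b and Mir879, beside 23.7% of all listed genes. Of the 22 with a peak in either iOL replicate, 4 (18.2%) had one in both, Mir28b, Mir509, Mir703 and Mir879, beside 26.7%. The remaining 33 genes had a peak in 1 sample each.

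Mir28b was the member with the highest peak. Its hairpin (mm9 chr8:75540411-75540490, + strand) lies within Large, on the opposite strand. The peaks were 35.5 kb upstream in an intron of Large, with summits no more than 1 bp apart in all 4 samples. They held 10 tags in OLP A, 15 in OLP B, 16 in iOL A and 17 in iOL B. Fold enrichment was 24.3 in OLP A, 9.96 in OLP B, 39.7 in iOL A and 16.9 in iOL B, so that the ranges of the stages overlapped. The merged region, chr8:75504904-75505075 (mm9, + strand), reads as follows, with the bases that lie in all 4 peaks in capitals.
Mir28b peak region: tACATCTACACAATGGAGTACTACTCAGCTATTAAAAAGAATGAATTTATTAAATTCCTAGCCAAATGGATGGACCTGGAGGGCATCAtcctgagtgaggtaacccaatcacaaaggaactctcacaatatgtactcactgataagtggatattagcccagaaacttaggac

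All of the 32-base stretches of these peaks occurred more than once in mm9, and BLAST found 63932 to 65893 similar sequences (at least 80% identity over at least 80% of the peak). Copies per 32-base stretch had a median of 73.5 in OLP A and 918 in OLP B. In iOL A the median was 74.5 and in iOL B 3975. Whether tags from such copies can be assigned to a place by their sequence was not tested, and tag length was not examined. How the aligner placed these tags is not given in the sources used here. Their part in the peaks was not tested.

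Mir879 had the most peaks of any member, 5, at 2 sites 1402 bp apart. Its hairpin (chr5:9375704-9375779, + strand) and both sites lie within 9330182L06Rik, the sites in an intron. The site 42.6 kb upstream was called in OLP only, with 11 tags and 19.5-fold enrichment in OLP A and 11 tags and 10.1-fold in OLP B. The site 41.2 kb upstream was called with 19 tags and 21.4-fold enrichment in OLP B, 10 tags and 24.8-fold in iOL A, and 13 tags and 13.7-fold in iOL B. The nearer site was not called in OLP A, and the farther one was not called in either iOL sample, which does not show that it was unoccupied there. The sites (mm9, + strand, chr5:9333051-9333251 and chr5:9334483-9334581) are shown with the bases that lie in every called peak in capitals.
Mir879 farther site: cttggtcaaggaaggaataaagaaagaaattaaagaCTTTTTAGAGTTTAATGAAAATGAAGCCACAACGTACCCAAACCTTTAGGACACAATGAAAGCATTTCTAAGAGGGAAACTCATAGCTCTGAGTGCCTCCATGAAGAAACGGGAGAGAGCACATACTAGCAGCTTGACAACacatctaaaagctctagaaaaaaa
Mir879 nearer site: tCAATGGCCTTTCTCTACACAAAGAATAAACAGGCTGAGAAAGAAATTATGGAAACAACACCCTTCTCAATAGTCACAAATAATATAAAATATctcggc

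Both sites also consisted of repeated stretches throughout, with 28066 to 28550 similar sequences for the farther and 37092 to 37491 for the nearer site.

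Mir703 and Mir509 were called in OLP A and in both iOL samples, and in neither case in OLP B. The Mir703 peaks, 13.4 kb upstream of the hairpin in an intron of 1700007G11Rik, had 7 tags and 12.2-fold enrichment in OLP A, 10 tags and 17.4-fold in iOL A, and 11 tags and 11.6-fold in iOL B. The Mir509 peaks, intergenic on chromosome X and 13.5 kb upstream, had 8 tags and 14.7-fold enrichment in OLP A, 7 tags and 14.9-fold in iOL A, and 14 tags and 11.7-fold in iOL B. The OLP A value lay between the iOL values in fold enrichment for both genes. The Mir509 region (mm9, + strand, chrX:65276758-65276943), with the bases of all 3 peaks in capitals, had 28722 to 29682 similar sequences in the genome.
Mir509 peak region: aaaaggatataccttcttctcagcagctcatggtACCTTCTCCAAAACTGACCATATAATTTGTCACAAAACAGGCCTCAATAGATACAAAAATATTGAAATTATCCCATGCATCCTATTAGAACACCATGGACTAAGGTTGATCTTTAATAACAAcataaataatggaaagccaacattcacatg

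Mir344c and Mir344b each had an intergenic peak in 1 OLP and 1 iOL sample. The Mir344c peak, 20.4 kb upstream, had 9 tags and 19.5-fold enrichment in OLP A and 15 tags and 14.8-fold in iOL B. The Mir344b peak, 11.6 kb upstream, had 17 tags and 14.2-fold enrichment in OLP B and 14 tags and 6.21-fold in iOL B. Although their mature 5p products share a seed, it was the Mir344c and Mir703 peaks, on different chromosomes, that resembled each other, with 93.9% identity over 115 bases on opposite strands. They are shown for this likeness (mm9, Mir703 chr5:98917985-98918203 on the + strand, Mir344c chr7:69002609-69002770 on the - strand), with the aligned bases in capitals.
Mir703 peak region: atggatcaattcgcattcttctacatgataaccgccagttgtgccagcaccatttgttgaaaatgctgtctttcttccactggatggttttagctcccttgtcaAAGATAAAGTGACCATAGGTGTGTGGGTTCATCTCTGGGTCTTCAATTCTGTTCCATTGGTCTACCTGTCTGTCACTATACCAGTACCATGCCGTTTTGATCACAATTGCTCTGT
Mir344c peak region: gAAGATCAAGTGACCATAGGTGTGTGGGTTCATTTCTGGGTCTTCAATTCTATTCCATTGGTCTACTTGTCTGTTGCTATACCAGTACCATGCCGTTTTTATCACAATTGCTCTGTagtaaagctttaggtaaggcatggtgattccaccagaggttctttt

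Mir30d, a gene of the miR-30 family, had the third highest microRNA peak of OLP B, with 14 tags and 13.5-fold enrichment 32 kb upstream and 41720 similar sequences. It was called in no other sample.

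Likeness of the kind seen between Mir703 and Mir344c was found for 11 pairs of peaks among 13 microRNA genes, at 90.4% to 98.6% identity over 62 to 155 bases (limits of 90% and 50 bases). MicroRNA peaks were compared only with each other. No rate for all listed peaks was computed, so the count is not a trait of microRNA genes. Named after their values were seen, the peaks at Mir1946a and Mir879 matched over 98 bases (92.9%), and those at Mir28b and Mir3102 over 64 bases (96.9%).

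Recurrence was next measured by position. A peak was counted as found again when a peak in the other replicate, whatever its gene, was at most 500 bp away. This held for 2 of 17 microRNA peaks in OLP A (11.8%, 95% Wilson interval 3.29% to 34.3%) and 2 of 17 in OLP B (11.8%, the same interval), beside 20.9% and 34.1% of all listed peaks. It held for 4 of 16 in iOL A (25%, 10.2% to 49.5%) beside 25.6%, and for 4 of 10 in iOL B (40%, 16.8% to 68.7%) beside 47.8%. The intervals cover counting error only, and each includes the share of all listed peaks, that of OLP B by a small margin. Over all 4 samples, 21 of 60 microRNA peaks (35%) lay within 500 bp of a peak of any other sample, beside 45.9%.

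These recurrent peaks were mostly repeated sequence. A peak was called repeated when over 50% of its 32-base stretches occur more than once in mm9. This was so for 36 of 60 microRNA peaks (60%), beside 82.2% of all listed peaks. By sample the share was 64.7% in OLP A, 41.2% in OLP B, 68.8% in iOL A and 70% in iOL B, beside 86%, 68.9%, 87.1% and 83% of all listed peaks. Of the 36 repeated microRNA peaks, 19 (52.8%, 95% Wilson interval 37% to 68%) lay near a peak of another sample, beside 53.1% of all repeated peaks. Of the 24 others, 2 did (8.33%, 2.32% to 25.8%), beside 12.3%. The 19 peaks lay at 7 sites and the 2 at that of Mir486, each site counted once per sample that called it. Such peaks are not independent, so these intervals are too narrow. The background shares count peaks in the same way. Within each class, the share at microRNA genes was thus near the background. No test was made, since peaks of 1 sample are not replicates.

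**Figure D2:**
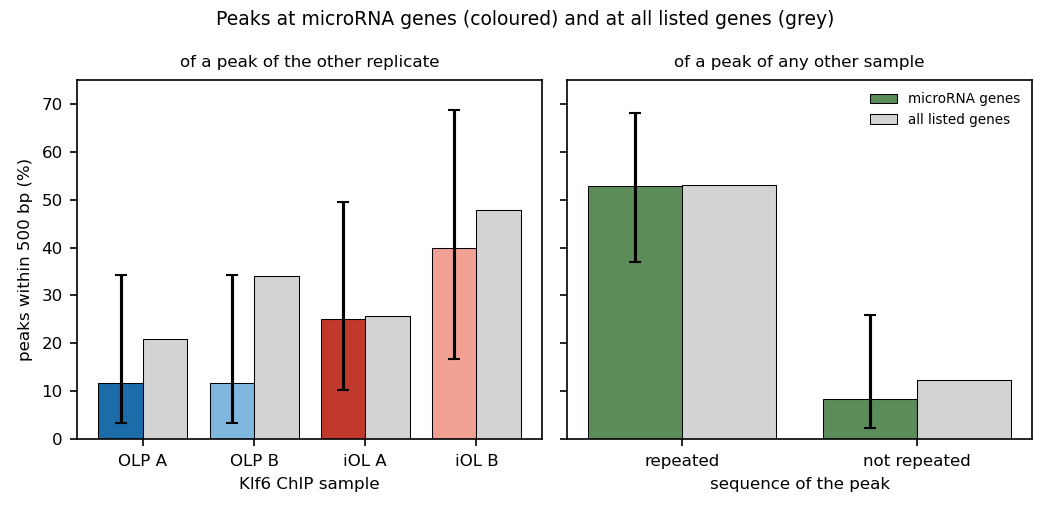
Share of peaks (%) with a neighbour at most 500 bp away in the other replicate, by sample (left), and in any other sample, by sequence class (right). Coloured bars are microRNA genes with 95% Wilson intervals and grey bars are all listed genes. On the right, 52.8% of repeated microRNA peaks and 8.33% of the others were found again. There a site is counted once per sample that called it, so the intervals are too narrow.

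By site, the 60 peaks fell at 47 places, of which 8 were called in 2 or more samples. At 7 of the 8 the peaks were repeated sequence, with 6.21-fold to 39.7-fold enrichment. The eighth, singled out after its values were seen, belonged to Mir486, a muscle and erythroid microRNA in the Ank1 gene. Its peak lay 47 kb upstream of the hairpin in an Ank1 intron, with 106 tags and 4.5-fold enrichment in OLP A and 98 tags and 3.51-fold in iOL A. These peaks had the most tags and the lowest folds of all 60, and BLAST found 114 and 147 sequences similar to them. Mir2136, Mir350 and Mir582 were listed in both stages at different sites.

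The 22 remaining peaks, at 20 genes, matched the genome at a single place by the same BLAST limits. None of the 22 lay within 500 bp of a peak in another sample, where 12.3% of all listed peaks that were not repeated did. BLAST was run for the microRNA peaks alone, so that share includes peaks with further copies, such as those of Mir486, which were set apart here. The 2 Mir486 peaks were the only microRNA peaks not called repeated that lay near another sample's peak. The absence among the 22 therefore follows from setting them apart. The 22 peaks had 7 to 18 tags and 6.09-fold to 14.6-fold enrichment, 16 lay in introns, and 10 came from OLP B. Among repeated peaks the number of similar sequences ran from 23 to 117579, with a median of 39632.

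**Figure D3:**
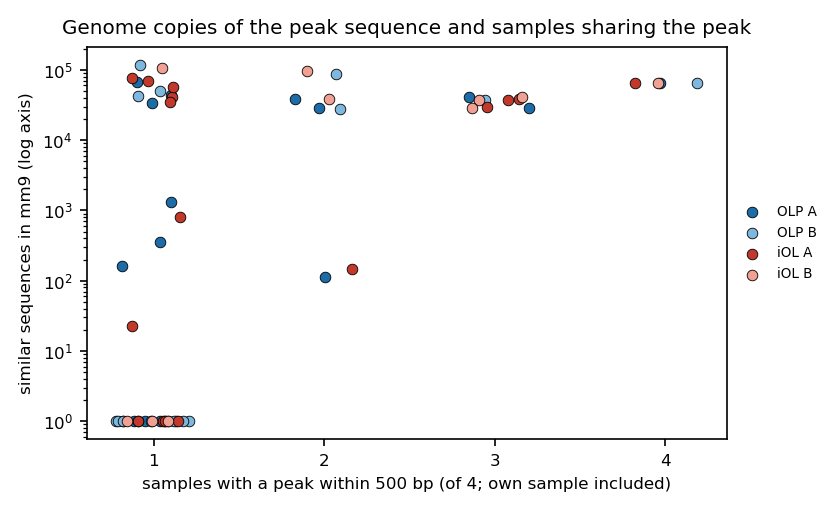
Number of similar sequences in mm9 (log axis) against the number of samples with a peak within 500 bp (own sample included, points spread sideways for visibility) for the 60 microRNA peaks. Each of the 22 peaks with a single genome match was called in its own sample only, and the Mir486 peaks are the pair at 114 and 147 copies.

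The third question was where the peaks lay. Upstream of the hairpin start were 56 of the 60 peaks and downstream were 4. The range over which peaks were listed reached much farther upstream than downstream, so most peaks would lie upstream even if evenly scattered. The upstream share of all listed peaks was not computed, so these counts are not shown to be a trait of microRNA genes. The median distance was -21.2 kb, beside -20.1 kb for all listed peaks, and 65% were more than 15 kb upstream, beside 61.3%. By the GENCODE annotation of mm9, 36 lay in introns, 3 in exons and 21 between genes. These shares were not computed for all listed peaks, so they are not a trait of microRNA genes. A position in mm9 was found for 45 hairpins, of which 24 lie inside another annotated gene or noncoding transcript, 20 of them on its strand. The outermost peaks, named after their values were seen, were those of Mir582 at -48.5 kb and Mir137 at 4.74 kb, each peak in 1 sample.

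Within 2 kb of the hairpin start were 3 peaks (5%), beside 4.93% of all listed peaks. The first was that of Mir92-1 in OLP B, with 11 tags and 6.76-fold enrichment. The second was Mir1945 in OLP B, 1.13 kb upstream, with 11 tags, 9.95-fold enrichment and 117579 similar sequences. The third was Mir669a-5 in iOL A, a member of the multicopy cluster in Sfmbt2, with 7 tags and 9.92-fold enrichment at 0.114 kb. Its peak overlaps an exon of Sfmbt2, and the GENCODE hairpin of that name lies 5009 bp from the summit, so the copy is uncertain. The Mir153 peak in iOL B, at 1.77 kb, did not pass the FDR limit.

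**Figure D4:**
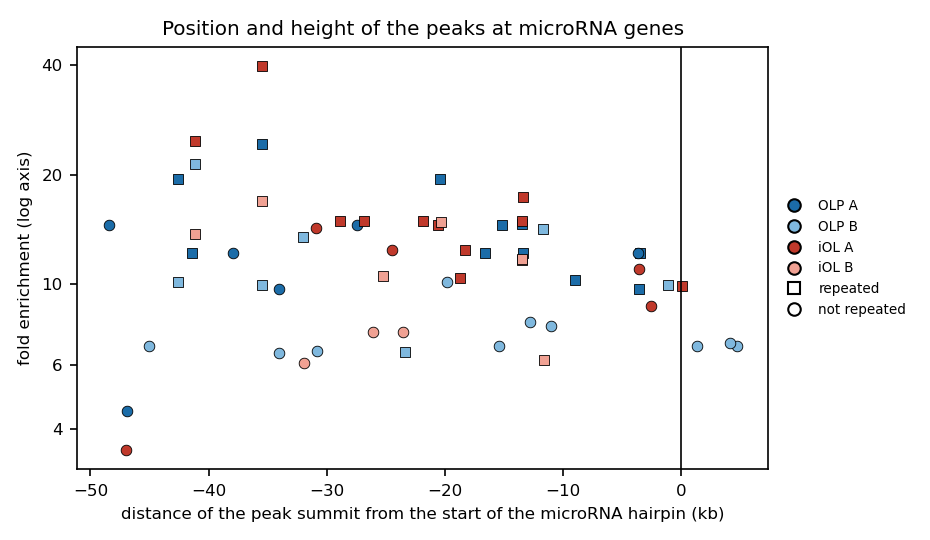
Fold enrichment (log axis) against the distance of the peak summit from the start of the hairpin (kb, negative is upstream) for the 60 microRNA peaks, coloured by sample, with squares for repeated sequence and circles for the others. Peaks are spread over the whole upstream range, and the highest, of Mir28b, lies at -35.5 kb.

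Klf factors bind GC-rich and CACCC-like elements, so motifs were counted on both strands in 200-base windows around the summits. CCNCCC was present in 3 of 60 windows (5%), beside 13.4% of all listed peaks. These were the windows of Mir92-1, Mirlet7a-1 and the OLP B peak of Mir350. CACCC was present in 8 (13.3%), beside 19.9%, and the nearer Mir879 site was counted once for each of its 3 samples. The GC box GGGCGG was present in 0, beside 0.875%. The Mir153 window in iOL B, which held GGGCGG and CCNCCC, was left out by its FDR of 5.46%. A letter match is a description and not a bound site. Windows had a median GC content of 38.5%, ranging from 25% to 49.5%, and the median of all listed peaks was 38.5% as well.

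Among microRNAs known from glial differentiation, 4 of the 47 genes on the list had a peak as its nearest gene, each in 1 sample, beside 3.42% of all RefSeq microRNA genes. Counting every gene listed at a peak, 17 of the 47 were named, beside 10.2%, and 6 of the 17 were named through 1 peak, that of Mir92-1. Mirlet7a-1, Mirlet7d and Mirlet7f-1 were named through the same OLP B peak, and Mir199a-2 and Mir214 through the same OLP A peak. Mir297c was named through the Mir669a-5 peak. The 17 genes are thus not separate sites, and the list was chosen with earlier results of these data known. The RefSeq table is of a later build than the peak lists and may hold genes that the authors' annotation did not, so the shares of RefSeq genes may be low. The Mir92-1 peak (mm9, + strand, chr14:115444930-115445086) lies in an exon of Mir17hg, the transcript that carries the cluster, 1.33 kb past the start of the hairpin. It matched the genome at 1 place, and its CCNCCC match is in capitals.
Mir92-1 peak: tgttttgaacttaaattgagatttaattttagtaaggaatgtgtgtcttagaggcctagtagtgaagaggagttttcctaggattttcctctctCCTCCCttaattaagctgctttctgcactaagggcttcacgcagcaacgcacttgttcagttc

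The Mir32 peak in OLP B, 12.8 kb upstream in an intron of D730040F13Rik, had 10 tags and 7.88-fold enrichment. It also matched the genome at 1 place (mm9, + strand, chr4:56920840-56920987) and is shown because miR-32-5p and miR-92a-3p share a seed.
Mir32 peak: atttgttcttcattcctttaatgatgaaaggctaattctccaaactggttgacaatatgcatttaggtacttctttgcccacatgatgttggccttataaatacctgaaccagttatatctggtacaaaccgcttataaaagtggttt

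The Mirlet7a-1 peak in OLP B (mm9 chr13:48667631-48667865) had 18 tags and 6.47-fold enrichment 34.1 kb upstream, where it overlaps the small nucleolar RNA SNORA17, and it matched the genome at 1 place. The Mir138-1 peak in iOL A had 7 tags and 14.6-fold enrichment 20.5 kb upstream, with 792 similar sequences. None of the 4 glial microRNA peaks lay within 500 bp of a peak in another sample. Mir219 and Mir338 genes had no listed peak as nearest gene, which does not show that Klf6 was absent there. Of the proteins that make and use microRNAs, 1 of 11 had a peak as its nearest gene, beside 16.2% of RefSeq protein-coding genes, and 2 of 11 were listed at a peak at all, beside 23.2%. The first was Ago2 (listed as Eif2c2), the slicing Argonaute, in OLP A with 7 tags and 8.43-fold enrichment 11.4 kb upstream, and the other was Tarbp2, a partner of Dicer, in OLP B with 11 tags and 6.76-fold enrichment at a peak nearest to Pcbp2.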

How the data were processed

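Klf6 ChIP-seq peak lists of 2 OLP and 2 iOL samples were analysed. Per the study's methods, the authors kept reads of quality Q20 in most bases (FASTX) and aligned them to mm9 with Bowtie2. They then called peaks with MACS, each ChIP sample relative to input, and assigned RefSeq genes. The submitters' processing notes also name CASAVA 1.8. The version of MACS is not given in the sources used here. The deposited lists give raw tag counts per peak, a score (10 times -log10 of the p-value), the fold enrichment as a ratio over background, and the FDR in percent. Tags were not normalised between samples and aligned read totals are not given in the sources used here, so depth is known only as tags in peaks, and heights were not tested between stages.

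Genes were taken from the nearest gene column, with an FDR under 5%. For the 2 stages, numbers and shares per sample entered an exact permutation test. Overlap used a gap of at most 500 bp. Sequences were read from NCBIM37, which is mm9, and 0 peaks ran past a chromosome end. Copies of peak sequences were found with BLAST (version 2.17.0, E value limit 1e-10). Other software was scipy 1.17.1, pandas 2.3.3 and numpy 2.4.6 under Python 3.11.15, with numba 0.67.0 for counting repeats and matplotlib 3.10.9 for plots. The overlap and repeat functions were tested on simulated data. Named were genes in 3 or more samples or in both replicates of a stage, the 3 highest peaks per sample, peaks within 2 kb, list genes with a peak, and the gene with the most peaks. The members and lists were chosen with earlier results of these data known. Alternatives were no FDR limit, a window from -15 kb to +5 kb, a score of at least 50, a minimum of 10 tags, no repeated peaks, other overlap limits, each replicate left out and the replicate letter as a block.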

Additional observations from a re-analysis of the deposited data

Results flagged for a closer look

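The lists also name all genes within range of a peak, not only the nearest, and the comparisons above did not use that second naming. It held 83 further microRNA genes, which had not been named as the nearest gene, at 58 peaks. Of these genes, 75 were in 1 sample, 1 in 2, 5 in 3 and 2 in all 4 samples, and 27 were at the single Mir669a-5 peak in iOL A. Of all genes named as the nearest, 36% were in 2 or more samples, and that share was not computed for the second naming. The highest of the 83 was Mir7b, a microRNA of the glial list, at a peak whose nearest gene is D17Wsu104e. That peak lay 42.9 kb upstream of the Mir7b hairpin and had 48 tags and 114.25-fold enrichment in OLP A, 36 tags and 37.2-fold in OLP B, 29 tags and 67-fold in iOL A, and 17 tags and 5.15-fold in iOL B. From 58.4% to 100% of its 32-base stretches were repeated in mm9. Mir1983, with Zfp184 as the nearest gene, had 34-fold enrichment in OLP A, 14.6-fold in OLP B, 21.4-fold in iOL A and 23.3-fold in iOL B. From 34.7% to 46.2% of the 32-base stretches of the Mir1983 peak were repeated in mm9. By the limit used above it was thus not called repeated in any sample, although it was called in all 4 samples. It was not among the peaks compared above, where Mir486 had the only recurrent site that was not repeated. The values of Mir7b and Mir1983 have no control list to be set against.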

How the results depend on the processing

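The difference in the number of microRNA genes (OLP minus iOL) ran from 0.5 to 6.5 with 1 sample left out and reversed to -0.5 with a score of at least 50. The difference in their share of listed peaks ran from -0.171 to 0.242 percentage points with 1 sample left out (-0.0347 without iOL replicate A), and it reversed to -0.0575 with no FDR limit, -0.0635 with at least 10 tags and -0.0925 with a score of at least 50. With the replicate block these differences were 3.5 (exact p = 0.5) and 0.0355 (exact p = 1), where 2 pairs cannot give a p below 0.5. The letters A and B do not mark a shared source in the labels, and no call changed. In the window from -15 kb to +5 kb, genes in both replicates numbered 0 in OLP and 2 in iOL, and 0% of OLP A and 0% of OLP B peaks were found in the other replicate, while the share rose to 40% in iOL A (5 genes left) and 66.7% in iOL B (3 genes left). With at least 10 tags the share found again was 66.7% in OLP A (3 genes left) and 60% in iOL A (5 genes left). Without repeated peaks, genes in both replicates numbered 0 in OLP and 0 in iOL, and 0% of peaks were found again in each of the 4 samples, of 6 peaks in OLP A, 10 in OLP B, 5 in iOL A and 3 in iOL B, beside 6.25%, 4.68%, 5.24% and 11.6% of all listed peaks that were not repeated. The cause of these shifts was not tested, beyond the smaller number of peaks left. Of the values under alternatives, 6 changed sign and 12 shares or counts moved beyond their counting interval or by over 1.5 times. The other 40 kept their sign and side of the threshold, or stayed within those limits, though some of them moved widely, such as the difference in share at 0.186 in the narrower window. Apart from those of Mir486 (106 and 98 tags), the microRNA peaks had 7 to 19 tags and carry a large counting error. A site without a call was not detected at this depth.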
